A study of Mus musculus with 6 samples.

Results

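The genes described here handle iron in the liver: the hepcidin genes Hamp and Hamp2, the transferrin receptors Tfrc and Tfr2, the iron exporter Slc40a1, the importer Slc39a14, the ferritin genes Fth1 and Ftl1, the carrier Trf and the heme synthesis gene Alas1. They were chosen by exact symbol, and all 10 were found among 35976 names in a liver RNA-seq count table and passed the filter on low counts, which 14954 genes passed. The table holds 3 libraries of genotype IRE1fl and 3 of genotype IRE1PKO, made from poly(A) RNA of male mouse livers. Both groups carry the diet label HFD (presumably high-fat diet), and livers were taken 4 hours into feeding that followed a 16-hour fast. IRE1 senses unfolded proteins in the endoplasmic reticulum, and by its title the series is about signals of this stress response between pituitary and liver. PKO is not spelled out in the labels, and no source used here gives the strain, the age or the promoter behind a deletion. Whether each library is 1 animal is not stated either, so the p-values measure the spread among libraries, which could be technical.

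Hepcidin is a small peptide hormone made by hepatocytes. It binds ferroportin, the iron exporter encoded by Slc40a1, and causes its degradation, so that less iron leaves macrophages, enterocytes and hepatocytes. Its transcription is raised by iron through bone morphogenetic proteins, hemojuvelin and SMAD factors, and by inflammation through interleukin 6 and STAT3. Inside cells, iron regulatory proteins bind hairpins called iron-responsive elements. In a 5′ UTR such a hairpin lets them block translation, as in ferritin mRNA, and in a 3′ UTR it lets them protect the transcript from decay, as in Tfrc mRNA.

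Total counts ranged from 35776219 to 39277435 per library. Values are given as CPM, the usual depth-scaled counts, with TMM scaling of the libraries, and a fold change is IRE1PKO over IRE1fl on the log2 scale with its standard error (SE). The 6 hepatocyte markers fixed for the tissue check summed to 79643 to 94628 CPM in IRE1fl and 77592 to 97064 CPM in IRE1PKO, and none of them passed edgeR, DESeq2 or limma-voom, nor had an unadjusted p under 0.05. Of the 10 iron genes, 3 rose and 1 fell in edgeR's quasi-likelihood test at an adjusted p of 0.05. Among all tested genes 9.54% were called, 5.68% as higher and 3.86% as lower. An unadjusted p of 0.048 corresponded to an adjusted p of 0.195 in edgeR, so unadjusted p under 0.05 were common among all tested genes. With library totals as the only scaling, 73.4% of the called genes were higher, against 59.5% with TMM. The groups did not overlap for 6 of the 10, against 31.0% of all tested genes. The 10 were chosen with earlier results of these data known, so these shares describe them and do not test for enrichment. The median log2 fold change was -0.17 over the 10 genes and 0.00 over all tested genes. In bulk tissue, fewer cells of a type and less RNA per cell cannot be told apart.

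The sequences that set the members apart are their iron-responsive elements and the upstream regions of the hepcidin pair. Of the 10 genes, 4 had a transcript in GENCODE M21 (GRCm38, the build of mm10) with a hairpin of this form, searched on the transcript strand: a cytosine, 5 bases, a loop of CAGTG and any base but G, then 5 bases that can all pair with the first 5, G-T pairs included. One hairpin was found in the 5′ UTR of Fth1, Ftl1 and Slc40a1 each, and 4 in the 3′ UTR of Tfrc. Of 21901 protein-coding genes, 1.01% had at least 1 such match and Tfrc alone had 4 or more. The 30 bases around each match are shown because these 4 genes carry the known binding sites of the iron regulatory proteins, with the 6 loop bases in capitals.
Fth1 (5′ UTR, chr19:9982731-9982760, plus strand): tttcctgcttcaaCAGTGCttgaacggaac
Ftl1 (5′ UTR, chr7:45459779-45459808, minus strand): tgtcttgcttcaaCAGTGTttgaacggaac
Slc40a1 (5′ UTR, chr1:45925465-45925494, minus strand): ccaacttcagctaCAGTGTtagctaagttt
Tfrc (3′ UTR, chr16:32631218-32631247, plus strand): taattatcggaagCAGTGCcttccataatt
Tfrc (3′ UTR, chr16:32631597-32631626, plus strand): acattatcgggagCAGTGTcttccataatg
Tfrc (3′ UTR, chr16:32631662-32631691, plus strand): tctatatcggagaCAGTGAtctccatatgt
Tfrc (3′ UTR, chr16:32631709-32631738, plus strand): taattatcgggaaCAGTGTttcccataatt

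Hamp (chromosome 7, 30942368 to 30944029) and Hamp2 (chromosome 7, 30922372 to 30924181) lie close together on the minus strand. Their transcripts Hamp-201 and Hamp2-203 were identical at 388 of 410 aligned bases (94.6%), and the 250 bases before their RefSeq start sites at 227 of 247 aligned bases (91.9%). The last 150 bases before each start (RefSeq, GRCm38.p6) are shown because the pair differs there in GGCGCC, the core of the known BMP-responsive element of the hepcidin promoter. Capitals mark that hexamer, or its counterpart GGCACC in Hamp2, and TTCNNNGAA, the form of the known STAT3 site.
Hamp (chr7:30944030-30944179, minus strand): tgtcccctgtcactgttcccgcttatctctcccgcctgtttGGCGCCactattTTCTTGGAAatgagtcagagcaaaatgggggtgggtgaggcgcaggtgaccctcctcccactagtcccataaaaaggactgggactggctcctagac
Hamp2 (chr7:30924182-30924331, minus strand): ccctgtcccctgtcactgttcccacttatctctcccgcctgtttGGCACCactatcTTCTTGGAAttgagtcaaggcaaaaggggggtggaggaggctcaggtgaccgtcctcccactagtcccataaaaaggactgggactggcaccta

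GGCGCC began 109 bases before the Hamp start, and the aligned Hamp2 hexamer carried the substitution G4A, with positions counted from 1 at the hexamer's 5′ end on the gene's strand and the Hamp base first. TTCTTGGAA was in both, 97 bases before the Hamp start and 94 before the Hamp2 start. Both GGCGCC and TTCNNNGAA read the same on both strands, and they did not overlap in Hamp. GGCGCC was in 11.9% and TTCNNNGAA in 8.30% of the 32851 RefSeq promoter windows of 300 bases. GGCACC, searched on both strands, was in 15.5%. RefSeq windows matched 7 of the 10 iron genes. Besides the hepcidin pair, a Tfrc window held GGCGCC and an Alas1 window TTCNNNGAA, and GGCACC was in windows of Ftl1, Alas1 and Fth1. Hamp2 held a second GGCACC, left in lower case above, 8 bases before its start. A match describes the letters and does not show binding.

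Hamp, the main mouse hepcidin gene, had the largest difference between genotypes of the 10. It had 512, 473 and 285 CPM in IRE1fl and 66.0, 43.5 and 181 CPM in IRE1PKO. Every IRE1PKO library was below every IRE1fl library, and within IRE1PKO replicate 3 was well above the other two. The means were 423 ± 121 and 96.8 ± 73.7 CPM (SD, n = 3 each), 4.37-fold lower in IRE1PKO. The log2 fold change was -2.13 (SE 0.67, 95% interval -3.94 to -0.32), and it did not pass (edgeR adjusted p = 0.15).

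The Hamp call turned on the way its spread was modelled and on 1 library. Without IRE1PKO replicate 3 its log2 fold change was -2.95 and it passed (edgeR adjusted p = 0.016). With each other library left out it ran from -2.35 to -1.78 and did not pass (edgeR adjusted p of 0.245 to 0.335). It passed in edgeR without the robust fit (adjusted p = 0.0226), in limma-voom (adjusted p = 0.0131) and in DESeq2 (adjusted p = 0.0164), and had an adjusted p of 0.13 to 0.291 under the other alternatives. Read counts for Hamp ran from 1604 to 18502 per library, so counting error was small beside the spread between libraries.

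Hamp2, the second hepcidin gene, had 54.5, 29.2 and 81.6 CPM in IRE1fl and 33.2, 69.6 and 25.3 CPM in IRE1PKO. The groups overlapped throughout, with a log2 fold change of -0.37 (SE 0.59, edgeR adjusted p = 0.758) and an interval of -1.96 to 1.22. Hamp made up 90.4%, 94.2% and 77.8% of the summed hepcidin counts in IRE1fl and 66.6%, 38.5% and 87.7% in IRE1PKO. In IRE1PKO replicate 2 there were more counts for Hamp2 than for Hamp. The log2 ratio of Hamp to Hamp2 was 3.02 ± 1.12 in IRE1fl and 1.05 ± 1.76 in IRE1PKO (SD, n = 3), a difference of -1.97 that an exact two-sided permutation test over libraries did not separate (p = 0.2, adjusted over 3 ratios 0.2). With 3 libraries against 3 that test cannot go below 0.1. Because the transcripts are near-identical, the split of reads between the pair is uncertain. Summed, the pair had 567, 502 and 367 CPM in IRE1fl and 99.2, 113 and 206 CPM in IRE1PKO. The sum was again lower in every IRE1PKO library.

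**Figure D1:**
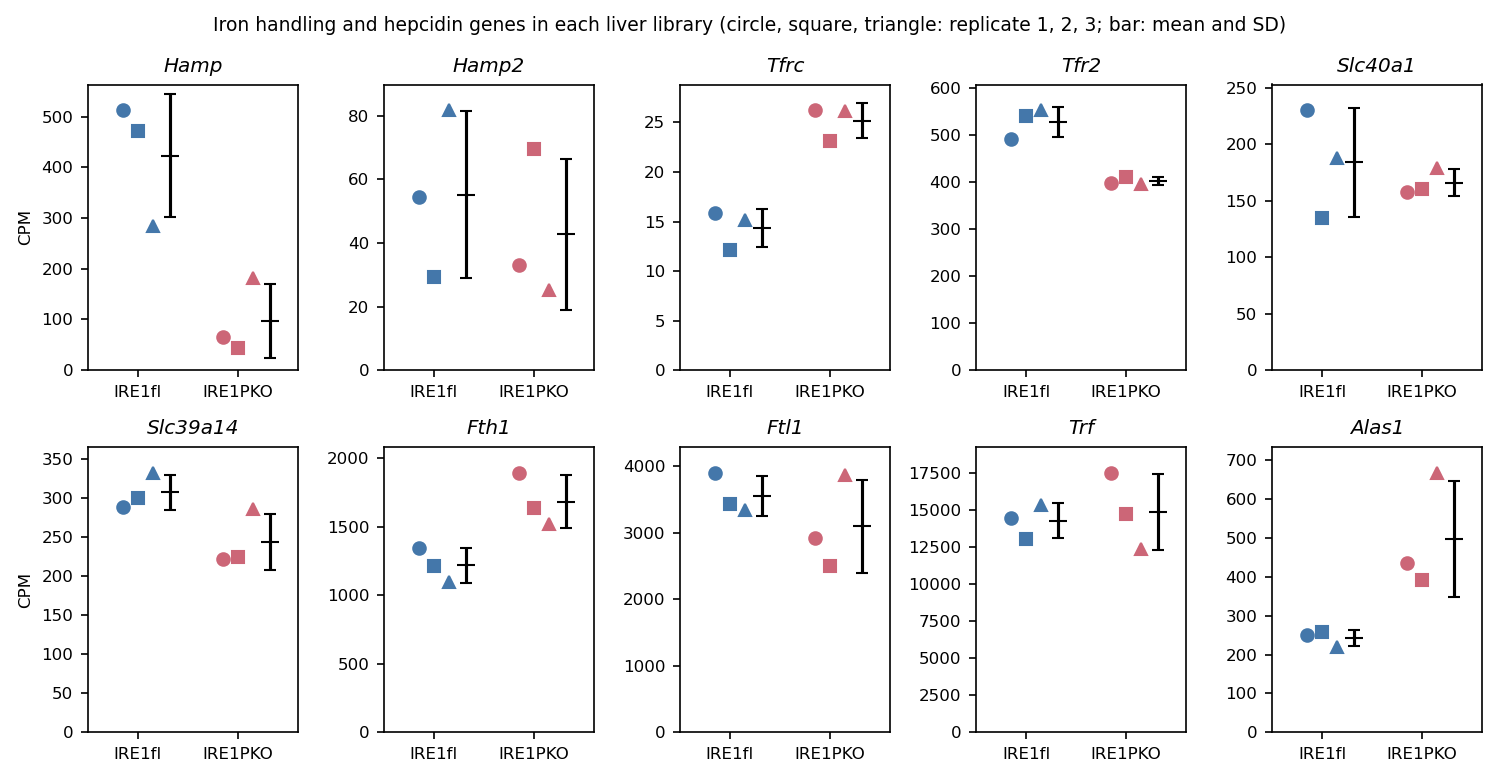
CPM of each of the 10 genes (vertical axis, from 0) in the 3 IRE1fl and 3 IRE1PKO libraries, one symbol per replicate, with mean and SD beside them. Hamp was at most 181 CPM in the IRE1PKO libraries and at least 285 CPM in every IRE1fl library, while Trf, Ftl1, Slc40a1 and Hamp2 overlapped between genotypes.

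Among the receptors, Tfrc and Tfr2 moved in opposite directions. Tfrc (chromosome 16, 32608896 to 32632794), which takes up transferrin-bound iron in most cells, had 15.8, 12.1 and 15.1 CPM in IRE1fl and 26.2, 23.2 and 26.2 CPM in IRE1PKO. The groups were well apart. It rose by a log2 value of 0.81 (SE 0.12, edgeR adjusted p = 0.00221), 1.75-fold in the means, and passed with each library left out (0.70 to 0.88, edgeR adjusted p up to 0.0152) and under each other alternative.

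Tfr2 (chromosome 5, 137569822 to 137588081), the hepatocyte receptor that takes part in sensing iron for hepcidin control, had 492, 542 and 553 CPM in IRE1fl and 399, 411 and 396 CPM in IRE1PKO. Its log2 fold change was -0.39 (SE 0.09, edgeR adjusted p = 0.024), a fall, with means of 529 ± 32.7 and 402 ± 8.19 CPM. The Tfr2 call held without IRE1fl replicate 1 and was lost with each of the other 5 left out, with values of -0.41 to -0.36 and edgeR adjusted p of 0.0516 (IRE1PKO replicate 3), 0.0734 (IRE1PKO replicate 2), 0.078 (IRE1fl replicate 3), 0.0841 (IRE1fl replicate 2) and 0.0854 (IRE1PKO replicate 1). The ratio of Tfrc to Tfr2 counts was 0.0322, 0.0224 and 0.0273 in IRE1fl and 0.0656, 0.0563 and 0.0662 in IRE1PKO. These did not overlap (exact permutation p = 0.1, the smallest possible, adjusted over 3 ratios 0.15).

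Tfrc is also high in dividing cells and in red cell precursors. The summed level of 5 genes of dividing cells was 4.91 to 7.17 CPM in IRE1fl and 9.06 to 18.7 CPM in IRE1PKO, and 2 of the 5, Top2a and Ccnb1, rose in edgeR. That count was 0 in limma-voom, with a mean of 1 CPM as the filter, and without IRE1fl replicate 2, IRE1fl replicate 3, IRE1PKO replicate 2 or IRE1PKO replicate 3. It was 3 in DESeq2 and without IRE1PKO replicate 1, and 1 without IRE1fl replicate 1 and in the fit without robust dispersion. The 4 globin genes summed to 312, 202.5 and 291 CPM in IRE1fl and 305, 853 and 208 CPM in IRE1PKO, which overlapped. Of the 6 tested genes of the red cell list, Alas2 fell (-0.88, edgeR adjusted p = 0.0018), and the others did not pass. The 4 globin genes had log2 fold changes of 0.67 to 0.84. Slc4a1, with 0 to 45 counts per library, had -0.17 (SE 1.23). Markers of stellate cells (265 to 293 CPM in IRE1PKO against 177 to 192 CPM, 4 of 5 higher) and of sinusoidal endothelium (279 to 373 CPM against 239 to 260 CPM, 4 of 8 higher) also had higher sums in IRE1PKO. Of all tested genes 5.68% were called higher. The stellate count was 3 or 4 with each library left out. The endothelial count was 0 without IRE1fl replicate 2, IRE1fl replicate 3, IRE1PKO replicate 1 or IRE1PKO replicate 2, and 6 with library totals as the only scaling. The part of dividing, red, stellate or endothelial cells in the Tfrc difference was not tested.

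Ferritin stores iron in a shell of heavy and light chains. Fth1, the heavy chain with the ferroxidase activity (chromosome 19, 9980600 to 9985111), had 1348, 1216 and 1094 CPM in IRE1fl and 1894, 1640.0 and 1517 CPM in IRE1PKO. All IRE1PKO libraries were higher, and it rose by a log2 value of 0.47 (SE 0.12, edgeR adjusted p = 0.0366). The Fth1 call was lost without IRE1fl replicate 2 (edgeR adjusted p = 0.0959), IRE1fl replicate 3 (0.115), IRE1PKO replicate 1 (0.147) or IRE1PKO replicate 2 (0.0912), with values of 0.37 to 0.48.

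Ftl1, the light chain (chromosome 7, 45457944 to 45459886), had 3900, 3424 and 3339 CPM in IRE1fl and 2921, 2499 and 3862 CPM in IRE1PKO. IRE1PKO replicate 3 was inside the IRE1fl range and the other two below it, so the groups overlapped (log2 fold change -0.20, SE 0.16, edgeR adjusted p = 0.465). Heavy and light chains together came to 4773 ± 423 CPM in IRE1fl against 4778 ± 621 in IRE1PKO (SD, n = 3). Fth1 supplied 25.7%, 26.2% and 24.7% of these in IRE1fl and 39.3%, 39.6% and 28.2% in IRE1PKO.

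The Fth1 to Ftl1 ratio did not overlap between genotypes (exact permutation p = 0.1, adjusted over 3 ratios 0.15). IRE1PKO replicate 3, at 0.393, was close to the highest IRE1fl value of 0.355, whereas the other two were at 0.649 and 0.656. Both ferritin genes have processed pseudogenes in the mouse genome, and no source used here says how reads shared with them were counted.

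**Figure D2:**
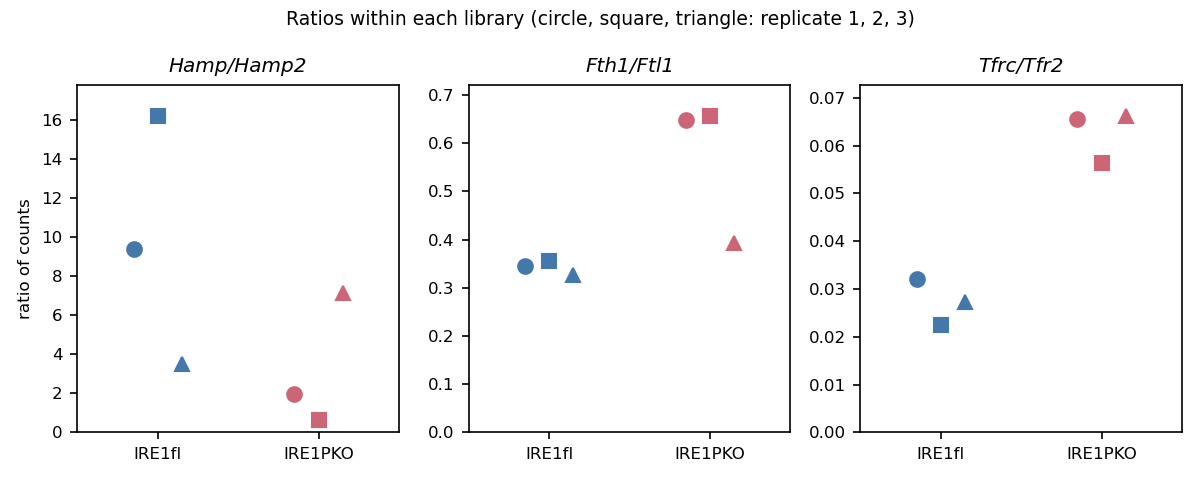
Ratio of counts within each library (vertical axis, from 0) for Hamp to Hamp2, Fth1 to Ftl1 and Tfrc to Tfr2, one symbol per replicate. The Tfrc to Tfr2 ratio ran from 0.0224 to 0.0322 in IRE1fl and from 0.0563 to 0.0662 in IRE1PKO, while the Hamp to Hamp2 ratio overlapped.

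The transporters differed less. Slc40a1 (chromosome 1, 45908070 to 45926532), ferroportin, had 229.9, 134 and 187 CPM in IRE1fl and 158, 160.2 and 179 CPM in IRE1PKO. The IRE1PKO libraries lay inside the IRE1fl range, with a log2 fold change of -0.15 (SE 0.17, interval -0.55 to 0.25, edgeR adjusted p = 0.651). Kupffer cells hold much of the liver's ferroportin, and 9 Kupffer cell and macrophage markers summed to 389 to 547 CPM in IRE1fl and 471 to 673 CPM in IRE1PKO. In edgeR none of these 9 passed (2 with an unadjusted p under 0.05), nor in limma-voom, and 1 was higher in DESeq2. Slc39a14 (chromosome 14, 70303467 to 70351452), which imports iron not bound to transferrin, had 289, 301 and 332 CPM in IRE1fl and 222, 224 and 286 CPM in IRE1PKO. The groups were just apart, and the log2 fold change of -0.33 (SE 0.12) did not pass (edgeR adjusted p = 0.102). It passed without IRE1PKO replicate 3 (-0.46, edgeR adjusted p = 0.0235) and with no filter on low counts (-0.33, edgeR adjusted p = 0.0498).

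Trf, the plasma carrier transferrin (chromosome 9, 103208876 to 103230286), ranked 4 or 5 by counts among all genes in every library, with 1.28% to 1.76% of all counts. Its 14449, 13026 and 15364 CPM in IRE1fl and 17533, 14760.0 and 12356 CPM in IRE1PKO overlapped fully (log2 fold change 0.06, SE 0.15, interval -0.26 to 0.38, edgeR adjusted p = 0.843). The log2 fold changes of the 6 hepatocyte markers ran from -0.25 to 0.19, with a median of -0.07.

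Alas1 (chromosome 9, 106233455 to 106247954), the rate-limiting enzyme of heme synthesis outside red cells, had 250.4, 258 and 221 CPM in IRE1fl and 434, 391 and 667 CPM in IRE1PKO. All 3 IRE1PKO libraries were higher and replicate 3 was the highest. It rose by a log2 value of 1.03 (SE 0.19, edgeR adjusted p = 0.0137), 2.05-fold in the means. Without IRE1fl replicate 3 the value was 0.97 and the call was lost (edgeR adjusted p = 0.0718), and with each other library left out it passed, from 0.76 to 1.18.

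Alas2, the isoform of red cell precursors, fell. It had 196, 141 and 186 CPM in IRE1fl and 88.0, 93.3 and 102 CPM in IRE1PKO, a log2 fold change of -0.88 (SE 0.12, edgeR adjusted p = 0.0018). The Alas1 share of Alas1 and Alas2 counts was thus 56.1%, 64.7% and 54.3% in IRE1fl and 83.1%, 80.8% and 86.7% in IRE1PKO. Of 11 tested genes of the later steps of heme synthesis and its transporters none passed in edgeR, with a median log2 fold change of -0.02. An unadjusted p was under 0.05 for 4 of them, and DESeq2 called 1 and limma-voom 0. Cpox had 218 and 211 CPM in the group means and Fech, which inserts the iron, 187 and 163 CPM. None of 10 listed regulators of Alas1 passed in edgeR, DESeq2 or limma-voom (median 0.02, 3 with an unadjusted p under 0.05). The pair with the highest mean was Lonp1 (0.08) and the nuclear receptor gene Nr1i3 (0.10). Those 3, named after their values were seen, were Ppargc1a (0.42, edgeR adjusted p = 0.114), Foxo1 (-0.38, 0.135) and Ppargc1b (-0.26, 0.193). The groups did not overlap for Ppargc1a, and Foxo1 passed only with replicate number as a block.

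**Figure D3:**
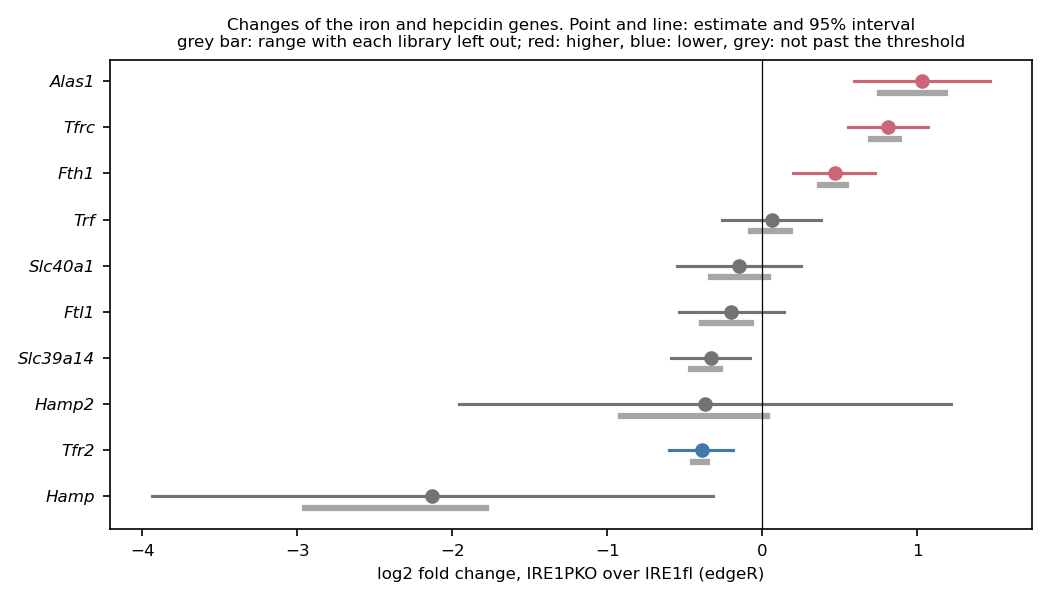
Log2 fold change of each of the 10 genes, IRE1PKO over IRE1fl (horizontal axis), with its 95% interval and, as a grey bar, the range when each library was left out. Alas1, Tfrc and Fth1 were past the threshold on the higher side and Tfr2 on the lower, and Hamp had the widest interval, from -3.94 to -0.32.

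Per kilobase of the GENCODE principal transcript, the order in IRE1fl was Trf (5554 CPM per kb), Ftl1 (3672), Fth1 (1312), Hamp (1033), Tfr2 (181), Hamp2 (126), Alas1 (78.7), Slc39a14 (62.4), Slc40a1 (54.6) and Tfrc (2.94). Neighbours whose library values overlapped there were Fth1 with Hamp, Tfr2 with Hamp2, Hamp2 with Alas1, and Slc39a14 with Slc40a1. In IRE1PKO, Hamp was at 236 ± 180 CPM per kb against 1813 ± 207 for Fth1 (SD, n = 3), and these no longer overlapped. Alas1, at 161 ± 48.0 CPM per kb, lay above Tfr2 on average (137 ± 2.80), although their libraries overlapped. These orders assume the named transcript is the main one.

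Around the members, 8 lists of iron and heme genes held 104 genes, of which 100 were tested. Of these, 1 rose and 3 fell, or 4.00% against 9.54% of all tested genes. None of the 22 tested genes of hepcidin control by BMP, hemojuvelin and SMAD passed in edgeR, and their median log2 fold change was 0.01. An unadjusted p was under 0.05 for 4, as it was for many of all tested genes. DESeq2 called 2 of the 22 and limma-voom 0. Over all genes, DESeq2 called 1182 higher and 890 lower of 14952, and limma-voom 801 and 578 of 14954. Hjv, the hemojuvelin co-receptor gene, listed under the older name Hfe2, averaged 123 ± 6.71 CPM in IRE1fl against 143 ± 7.38 in IRE1PKO (log2 fold change 0.22, edgeR adjusted p = 0.15). Hfe, which acts with Tfr2, had a log2 fold change of 0.23 (edgeR adjusted p = 0.173). Tmprss6, the protease that trims hemojuvelin, had 629 and 591 CPM (-0.09), and Furin, which cleaves prohepcidin, 369 and 359 CPM (-0.04).

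The ligand gene Bmp6 had 7.09, 4.91 and 4.85 CPM in IRE1fl and 3.16, 5.70 and 3.84 CPM in IRE1PKO, which overlapped (log2 fold change -0.41, edgeR adjusted p = 0.334), and Bmp2 had 13.6 and 15.6 CPM in the means (0.20). Both come largely from sinusoidal endothelium, whose marker sums are given above for Tfrc. Among SMAD target genes, Id1 (-0.04) and Smad6 (-0.03) had values near 0. Smad7 had a log2 fold change of -0.49 (edgeR adjusted p = 0.0777), with groups just apart, and Atoh8 of -0.63 (edgeR adjusted p = 0.086). In IRE1fl replicate 3, Atoh8 was at 8.70 CPM, inside the IRE1PKO range of 8.34 to 8.80 CPM. Without that library Smad7 and Atoh8 passed (-0.64 and -0.85, edgeR adjusted p of 0.0371 and 0.00836), as they did in DESeq2 (adjusted p of 0.0467 and 0.0311). They did not pass with any other single library left out, nor in limma-voom (adjusted p of 0.107 and 0.149). Both passed with no filter on low counts (edgeR adjusted p of 0.0288 and 0.031). With replicate number as a block, Smad7 passed and Atoh8 did not (edgeR adjusted p of 0.0313 and 0.0849).

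None of 12 tested genes of the interleukin 6 and STAT3 arm passed in edgeR, with a median of -0.12, and the groups did not overlap for 6 of them. Over all the lists the groups did not overlap for 32 of the 100 tested genes, against 31.0% of all tested genes. Of the 12 genes of this arm, 5 had an unadjusted p under 0.05. Among these 12, DESeq2 called 3 higher and 2 lower and limma-voom 2 higher. Of all 14952 genes it tested, DESeq2 called 1182 higher and 890 lower. Fga, a fibrinogen chain, averaged 3405 ± 707 CPM in IRE1fl against 2534 ± 113 in IRE1PKO (-0.43, edgeR adjusted p = 0.0896). Creb3l3, a hepatocyte factor processed in the secretory pathway that can drive Hamp, had 442 ± 18.4 and 351 ± 32.3 CPM (-0.33, edgeR adjusted p = 0.0615). Fga and Creb3l3 were lower in DESeq2 (adjusted p of 0.0235 and 0.0157) and in edgeR with no filter (0.0219 and 0.0455). With replicate number as a block they also passed (edgeR adjusted p of 0.0469 and 0.0433), but not in limma-voom (0.113 and 0.0554). Without IRE1fl replicate 2, Fga passed (edgeR adjusted p = 0.0456) and Creb3l3 did not (0.154). Of the other acute phase genes in this list, named after their values were seen, Crp had a log2 fold change of 0.01 (edgeR adjusted p = 0.945) and Saa1 of 0.80 with overlapping groups (edgeR adjusted p = 0.483). Saa2 had 29.8, 11.6 and 38.3 CPM in IRE1fl and 103, 81.0 and 88.0 CPM in IRE1PKO (1.77, edgeR adjusted p = 0.106). Lcn2, which binds bacterial iron carriers, had 6.81, 3.12 and 11.8 CPM in IRE1fl and 32.2, 24.7 and 38.96 CPM in IRE1PKO (2.14, edgeR adjusted p = 0.0818). Both passed without IRE1fl replicate 2 (edgeR adjusted p of 6.75e-04 and 0.0295), Lcn2 also without IRE1fl replicate 3 (0.0324), and both with DESeq2, limma-voom and the fit without robust dispersion.

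Of 7 genes for iron regulatory proteins, ferritin turnover and iron chaperones, Fbxl5 rose. It encodes the iron-sensing ligase subunit that marks iron regulatory protein 2 for degradation, and went from 24.0 ± 1.13 to 30.2 ± 1.15 CPM (log2 fold change 0.33, SE 0.09, edgeR adjusted p = 0.0389). The call was lost without any 1 of the 6 libraries (edgeR adjusted p of 0.0644 to 0.134). The genes of the regulatory proteins, Aco1 and Ireb2, each had a log2 fold change of -0.15, and the ferritin receptor gene of autophagy, Ncoa4, of 0.11.

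Among 12 tested genes of other iron uptake and oxidation, Steap3, a ferric reductase of endosomes, fell from 31.9 ± 5.64 to 20.7 ± 1.75 CPM (-0.62, SE 0.13, edgeR adjusted p = 0.0124). Without IRE1PKO replicate 1 that call was lost (-0.56, edgeR adjusted p = 0.0662). Ceruloplasmin, Cp, the ferroxidase of plasma, had 1057 and 1113 CPM. Scara5, a scavenger receptor that binds ferritin, was named after its values were seen. It had 32.9, 35.2 and 48.0 CPM in IRE1fl and 4.95, 2.23 and 11.4 CPM in IRE1PKO. Its groups were far apart (log2 fold change -2.64, SE 0.64), and like Hamp it did not pass with the robust fit (edgeR adjusted p = 0.0856). Scara5 did pass in edgeR without the robust fit (adjusted p = 0.00789) and without IRE1PKO replicate 3 (0.0159). DESeq2 (adjusted p = 9.2e-04) and limma-voom (adjusted p = 0.00362) also called it lower.

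Of 11 heme and hemoglobin clearance genes, Lrp1, which takes up heme bound to hemopexin among many other ligands, fell from 1281 ± 82.2 to 968 ± 54.3 CPM (-0.40, SE 0.10, edgeR adjusted p = 0.0323). That call was lost without any 1 of the 6 libraries (0.0518 to 0.129) and with library totals as the only scaling (0.0647). Haptoglobin, Hp, had 2948 and 3649 CPM (0.31, edgeR adjusted p = 0.128), hemopexin, Hpx, 4342 and 3925 CPM, and Hmox1, the inducible heme oxygenase, 23.8 and 28.0 CPM. Among 15 iron-sulfur cluster genes Fdx1, a mitochondrial ferredoxin, fell from 125 ± 24.6 to 87.2 ± 5.34 CPM (-0.52, SE 0.13, edgeR adjusted p = 0.0375). It passed without IRE1fl replicate 1 (edgeR adjusted p = 0.00308), and without each other single library it did not (0.0842 to 0.143), nor did it in limma-voom (-0.50, adjusted p = 0.0519).

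**Figure D4:**
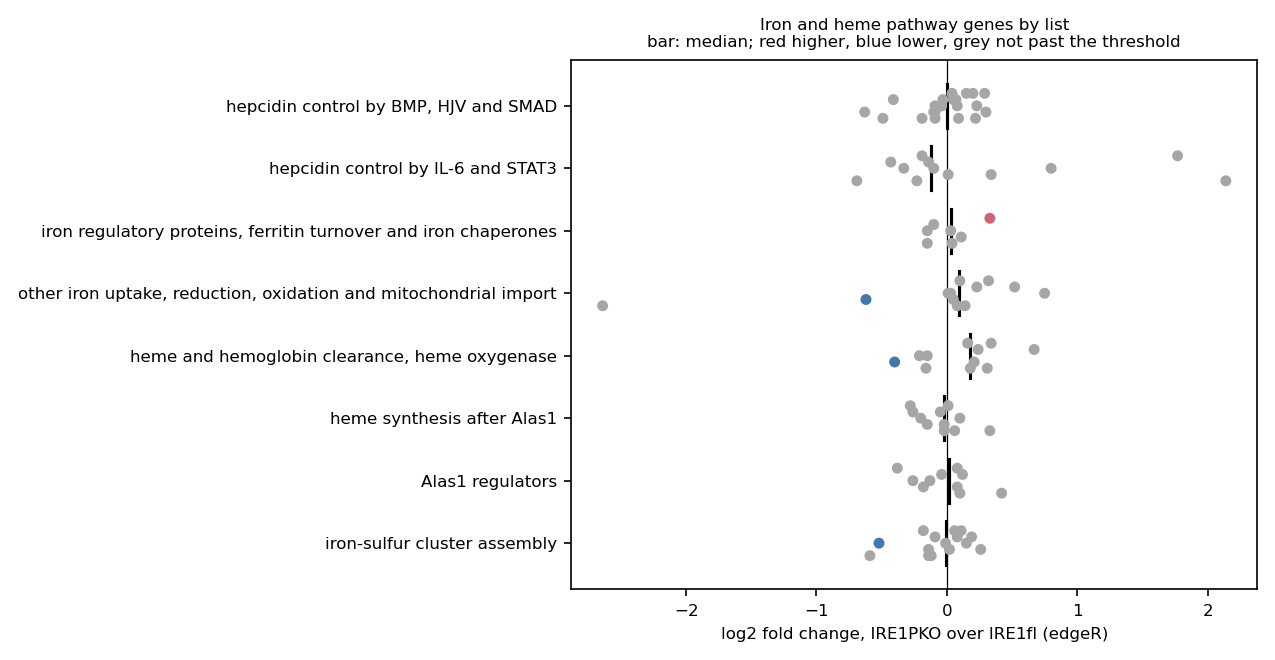
Log2 fold change, IRE1PKO over IRE1fl (horizontal axis), of each tested gene in the 8 lists (rows), with a bar at the list median. Medians lay between -0.12 and 0.18, and 4 points are coloured as past the threshold: Fbxl5 on the higher side, and Steap3, Lrp1 and Fdx1 on the lower.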

How the data were processed

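Poly(A) RNA of mouse liver was sequenced in 6 libraries, 3 per genotype. The authors deposited raw counts per gene symbol with no pooling. Per the submitters' processing notes, reads were mapped on build mm10. For the aligner, the counter, the annotation and the strand setting: not given in the sources used here. GENCODE M21 places a transcript on the opposite strand over Hamp, Hamp2, Ftl1 and Alas1 and one on the same strand over Trf and Ftl1, so reads of such partners may be included. Columns were matched to samples by genotype and replicate number.

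The filter was filterByExpr and the scaling TMM (trimmed mean of M-values). In edgeR 4.0.16 under R 4.3.3, the two-sided quasi-likelihood test was run with robust dispersion, Benjamini-Hochberg adjustment over 14954 genes and a threshold of 0.05. The CPM here are relative to TMM-scaled totals of the filtered genes. Intervals are 95%. The steps were tested on simulated data. Alternatives included limma 3.58.1 (voom) and DESeq2 1.42.0. No library was a copy of another of its group (chi-square per gene between pairs from 30.7 to 68.5).

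The members and lists were chosen with earlier results of these data known. Named genes are the 10 members, fixed key genes of each list, up to 6 called genes per list, and, where none was called, the pair with the highest mean. Genes of the cell type marker lists were named with their values known. Other genes are said to be named after their values were seen. Of 146 list entries, 4 were matched by older names in RefSeq and 1 was not found.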

Additional observations from a re-analysis of the deposited data

How the results depend on the processing

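With 3 libraries a group, most calls here lie near the threshold. The log2 fold changes of the 10 genes, over 15 alternatives each, stayed on the same side of the threshold 133 times, lost a call 10 times and gained one 7 times, and no called value changed sign. DESeq2 called 1182 genes higher and 890 lower, against 849 and 577, with 2 of the 10 iron genes lower and 6 list genes higher and 8 lower. Without a filter, 2 iron genes were lower, and 3 list genes were higher and 7 lower. With limma-voom and without robust dispersion, 2 iron genes were lower and 3 list genes higher. Library totals gave 5 list genes higher, a mean of 1 CPM gave 2, and a threshold of 0.1 gave 1299 genes higher and 992 lower, with 6 list genes higher and 9 lower.

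With 1 library left out, 398 (without IRE1PKO replicate 1) to 868 (without IRE1fl replicate 1) genes were higher and 255 to 616 lower, from the same libraries. Of the iron genes 1 to 3 were higher and 0 to 2 lower, and of the list genes 0 to 2 were higher and 0 to 3 lower.

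Same-numbered libraries of the genotypes had deviations correlated at 0.12, -0.02 and 0.18, so the numbers were not taken as pairs, and not every library correlated best with its own number. With the replicate block, 1051 genes were higher and 814 lower, with 2 iron genes lower (Slc39a14, adjusted p = 0.0345, joining Tfr2) and 4 list genes higher and 8 lower.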
